A study of Mus musculus with 18 samples.

Results

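The sites described here are the differential H3.3 sites that lie at or near annotated gene starts in C57Bl/6J mouse nucleus accumbens, the part of the ventral striatum best known for its role in reward. They were taken from 2 lists of differential sites in which a stressed group was set against home-cage controls. A site was counted when its deposited annotation was proximal promoter, promoter within 1 kb or promoter within 3 kb, or when it lay in a gene body with its midpoint no more than 10000 bp from the annotated start. Of 2300 listed sites, 253 met this rule: 138 of 1286 (10.7%) in the susceptible list and 115 of 1014 (11.3%) in the acute list. They fell in 247 genes, and 121 of the susceptible and 103 of the acute sites were assigned to protein-coding transcripts.

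Susceptible re-exposed mice had gone through repeated defeat episodes and had been scored as susceptible in a social interaction test at 48 h. They then met the aggressor for 5 min and were housed beside it for 55 min. Acute stress mice are labelled as control mice given a 1 h exposure, likewise 5 min with the aggressor and 55 min housed beside it. Control mice came straight from the home cage. The labels give day 28 after the last defeat for all groups. Tissue of both hemispheres from 5 animals went into each library, and age and sex are not given in the labels. No susceptible mice without re-exposure were among the samples, so earlier defeat, selection as susceptible and re-exposure cannot be told apart. Of the 3 ChIP libraries per condition in the labels, values stand in the susceptible list for 3 susceptible and 2 control libraries, and in the acute list for 2 and 2. They are called by their position in the list, since the list does not tie a position to a replicate number.

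H3.3 is a variant of histone H3 whose deposition does not need DNA replication, so neurons, which no longer divide, exchange it throughout life. The chaperone HIRA is known for placing it at active promoters and in transcribed gene bodies, and ATRX with DAXX for placing it at repeats and telomeres. Promoter nucleosomes that hold H3.3 turn over quickly, which is why H3.3 near gene starts is often read beside transcription. No RNA measurement belongs to these libraries.

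The levels below are normalised read counts, and 1 read was worth 0.534 to 1.63 of them depending on the library. Start-proximal sites were thin: the median was 43 reads over all 5 libraries at sites lower in susceptible mice (31 to 72), and 34 reads over all 4 at sites higher after acute stress (22 to 59). Replicate libraries are called biological by the labels, and with 2 or 3 of them per group the SDs are rough. The lists hold only sites past the authors' p threshold, so the number of promoters without a difference is not known here and the tissue cannot be checked by marker genes. In mixed tissue a lower count can come from fewer cells that carry H3.3 at a site or from less H3.3 per cell, and these cannot be told apart.

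The closest sites to gene starts were the 13 proximal promoter sites of the susceptible list and the 3 of the acute list. Promoter sequences from RefSeq (GRCm38.p6, the same assembly as mm10) were on hand for 9 of the 13 and for all 3. Shown here are those of 6 genes with lower H3.3 in susceptible mice and of the 3 acute genes, to set the sequence around these sites beside the values that follow. Each runs 5' to 3' on the gene's strand over the 250 bases before the start. Capitals mark 6 motifs searched on both strands: the TATA box TATAAA, the CCAAT box, the GC box GGGCGG, the cAMP response element TGACGTCA, the E-box CACGTG and the NRF1 core CGCATGCG.
Gsn: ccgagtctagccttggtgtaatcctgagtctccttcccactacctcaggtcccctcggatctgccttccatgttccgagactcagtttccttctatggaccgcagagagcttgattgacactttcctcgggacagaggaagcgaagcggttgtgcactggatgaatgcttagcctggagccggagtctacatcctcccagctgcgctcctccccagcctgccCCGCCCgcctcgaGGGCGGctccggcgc
Ccdc59: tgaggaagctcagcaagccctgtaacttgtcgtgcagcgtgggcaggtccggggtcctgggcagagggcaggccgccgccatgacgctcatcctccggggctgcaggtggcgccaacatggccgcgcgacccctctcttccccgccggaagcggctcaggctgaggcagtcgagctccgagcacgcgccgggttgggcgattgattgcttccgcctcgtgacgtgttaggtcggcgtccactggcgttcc
Usp40: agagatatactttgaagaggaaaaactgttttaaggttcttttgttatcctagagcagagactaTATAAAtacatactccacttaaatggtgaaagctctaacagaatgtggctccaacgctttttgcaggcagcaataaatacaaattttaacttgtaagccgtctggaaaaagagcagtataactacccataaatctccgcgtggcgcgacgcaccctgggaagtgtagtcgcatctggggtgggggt
Cetn3: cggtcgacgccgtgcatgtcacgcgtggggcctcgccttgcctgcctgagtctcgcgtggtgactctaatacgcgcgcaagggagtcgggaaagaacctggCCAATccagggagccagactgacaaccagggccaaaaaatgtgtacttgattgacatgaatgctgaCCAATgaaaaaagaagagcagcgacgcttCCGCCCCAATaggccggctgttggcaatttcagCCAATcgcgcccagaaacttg
Ing3: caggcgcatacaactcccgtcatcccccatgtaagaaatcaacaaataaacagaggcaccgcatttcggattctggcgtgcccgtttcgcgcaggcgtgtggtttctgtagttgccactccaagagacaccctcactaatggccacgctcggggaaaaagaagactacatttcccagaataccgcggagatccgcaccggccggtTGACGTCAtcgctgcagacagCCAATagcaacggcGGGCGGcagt
Ttc37: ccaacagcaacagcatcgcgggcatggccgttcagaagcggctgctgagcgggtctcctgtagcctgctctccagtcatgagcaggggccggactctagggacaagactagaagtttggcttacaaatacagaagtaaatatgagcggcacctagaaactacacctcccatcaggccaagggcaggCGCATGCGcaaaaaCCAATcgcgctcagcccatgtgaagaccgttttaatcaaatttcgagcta
Copa: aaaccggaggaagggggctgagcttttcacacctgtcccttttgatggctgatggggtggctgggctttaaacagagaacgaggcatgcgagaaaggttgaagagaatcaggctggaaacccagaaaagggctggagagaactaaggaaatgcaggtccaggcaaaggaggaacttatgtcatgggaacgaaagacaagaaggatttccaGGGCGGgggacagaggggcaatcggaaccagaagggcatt
Nomo1: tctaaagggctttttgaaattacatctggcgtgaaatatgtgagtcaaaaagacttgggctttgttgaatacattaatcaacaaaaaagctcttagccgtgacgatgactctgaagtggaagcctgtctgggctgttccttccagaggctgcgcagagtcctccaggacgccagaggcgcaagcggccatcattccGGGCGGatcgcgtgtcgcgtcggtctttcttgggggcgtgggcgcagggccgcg
Olfr902: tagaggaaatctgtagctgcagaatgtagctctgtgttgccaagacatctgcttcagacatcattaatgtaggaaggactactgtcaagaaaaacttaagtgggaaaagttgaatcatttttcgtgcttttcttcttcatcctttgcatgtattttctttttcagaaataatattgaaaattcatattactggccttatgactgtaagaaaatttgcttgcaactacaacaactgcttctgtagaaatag

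These windows lie at chr2:35256109-35256358 (plus strand) for Gsn, chr10:105841229-105841478 (plus) for Ccdc59, chr1:88008552-88008801 (minus) for Usp40, chr13:81782997-81783246 (plus) for Cetn3, chr6:21949321-21949570 (plus) for Ing3 and chr13:76098484-76098733 (plus) for Ttc37. The acute ones lie at chr1:172082279-172082528 (plus) for Copa, chr7:46033446-46033695 (plus) for Nomo1 and chr9:38448542-38448791 (plus) for Olfr902. The RefSeq start of Cetn3 differs by 45 bp from the start in the list, and the other 8 are equal. Most of the windows are rich in CpG. Ccdc59 has 68.4% GC with 26 CpG, Ing3 56% with 21, Cetn3 56.8% with 19 and Gsn 60.8% with 15, where the median of the 32851 RefSeq promoters used here, a set without chromosome 18, is 52.4% and 6 CpG over the same 250 bases. The Olfr902 window stands at the other end with 34.4% GC and 1 CpG.

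Motifs differed from promoter to promoter. Cetn3 has 4 CCAAT boxes, and the GC box on its reverse strand shares a base with the one that starts 49 bases before the start. Ing3 has a full cAMP response element 45 bases before the start, a CCAAT box at 24 and a GC box at 10. Ttc37 has the NRF1 core at 64 bases and a CCAAT box at 50, Gsn has GC boxes at 28 and 15, and Usp40 has a TATAAA at 186. Copa and Nomo1 have 1 GC box each, at 40 and 54 bases, and Ccdc59 and Olfr902 have none of the 6 motifs in this window. The H3.3 site covers 147 to 250 bases of each window except that of Ttc37, where it covers 8, and the motifs of Ttc37 and the GC box of Copa lie outside their sites. Of the same 32851 promoters, 33.8% hold CCAAT in the same 250 bases, 32.7% GGGCGG, 12.4% TATAAA, 6.02% CACGTG, 1.55% TGACGTCA and 1.55% CGCATGCG. Of all start-proximal sites in the susceptible list only 101 of 138 had a RefSeq window, so composition was not compared between sets.

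Nearly all listed sites near gene starts had lower H3.3 counts in susceptible re-exposed mice, as did the list as a whole. Of 138 start-proximal sites, 134 were lower and 4 higher. The lower share was 97.1%, beside 97.6% of all listed sites, and the higher share 2.90%, beside 2.41%. All 77 promoter sites were lower, and the 4 higher sites lay in gene bodies. Group values at the 134 lower sites had medians of 2.46 for susceptible mice and 12.6 for controls. The log2 fold changes given by the authors' deposited table had their median at -2.32. Over all 1255 lower sites of the list these were 2.18, 11.8 and -2.42, so near gene starts the lower share and the size of the difference were close to those of the whole list.

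**Figure D1:**
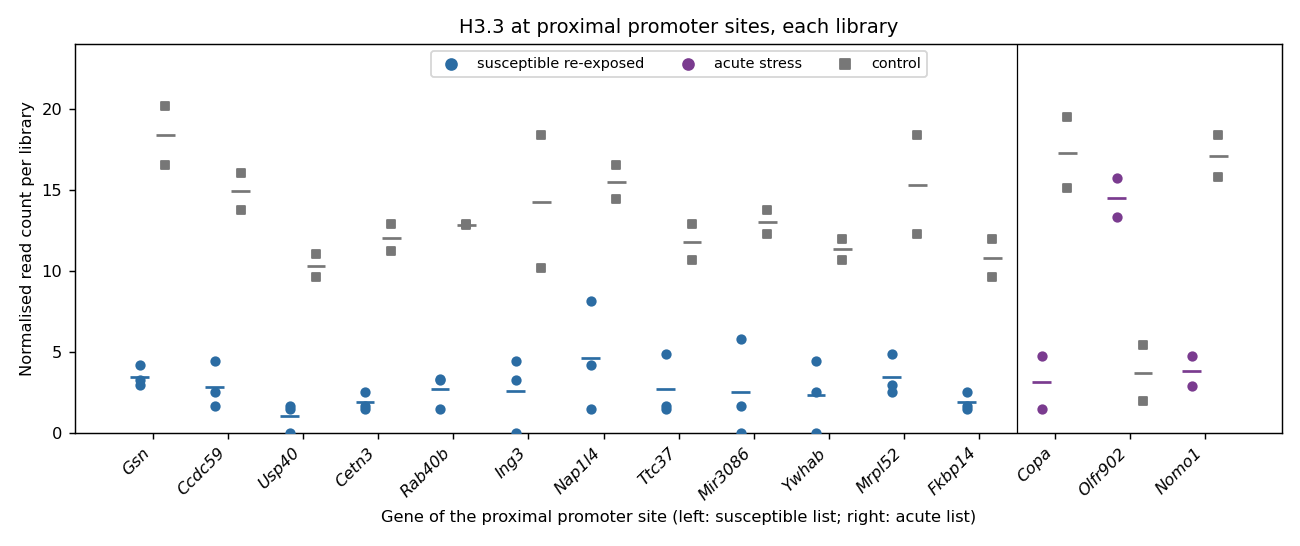
Normalised read count of each library (vertical axis) at 15 proximal promoter sites, with horizontal bars for group means; circles are stressed libraries and squares are control libraries. At the 12 sites shown from the susceptible list every susceptible library lies below both control libraries, and of the 3 acute sites Olfr902 is the 1 with higher values after stress.

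At the proximal promoter the site with the smallest p was that of Gsn, which encodes gelsolin, an actin-severing protein (chr2:35256051-35256450, midpoint 109 bp before the start). The 3 susceptible libraries held 3.26, 4.14 and 2.94 normalised counts and the 2 control libraries 20.2 and 16.6. The means were 3.45 ± 0.621 (SD, n = 3) and 18.4 ± 2.57 (SD, n = 2), and the authors' deposited table gives a log2 fold change of -2.42 with an adjusted p of 0.000458. Susceptible values were tight and far below both controls, and the site lay across the printed promoter window, GC boxes included. Ccdc59 had its site centred 9 bp past the start, with 1.63, 2.48 and 4.40 in susceptible libraries and 13.8 and 16.02 in controls (adjusted p = 0.000741 in the authors' deposited table). A start of Mettl25 on the other strand lies within 1 kb of the site. At both Gsn and Ccdc59 the deposited enrichment ratio was larger in susceptible mice, opposite to the counts (values below).

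Ing3 encodes a subunit of the NuA4 histone acetyltransferase that reads methylated histone H3. It held 3.26, 0 and 4.40 in susceptible libraries and 18.4 and 10.1 in controls, a mean of 2.55 ± 2.28 (SD, n = 3) and 14.2 ± 5.81 (SD, n = 2). The groups did not overlap, but the 2 control values were far apart. Nap1l4, which encodes a histone chaperone of the nucleosome assembly family, held 8.14, 4.14 and 1.47 against 16.5 and 14.4, the widest susceptible spread of the proximal sites. Ttc37, encoding a subunit of the SKI complex that feeds RNA to the exosome, held 4.88, 1.66 and 1.47 in susceptible libraries against 12.9 and 10.7 in controls. A start of Arsk on the other strand lies within 1 kb of the site.

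Usp40, of the ubiquitin protease family, had the lowest susceptible level of the proximal sites, 0, 1.66 and 1.47 normalised counts against 11.01 and 9.61 in controls. Cetn3, encoding the centrosomal calcium-binding protein centrin 3, held 1.63, 2.48 and 1.47 against 12.9 and 11.2. The ratio of pooled reads, susceptible over control, was 0.118 at Usp40 (exact 95% counting interval 0.0231 to 0.381) and 0.169 at Cetn3 (0.0517 to 0.433). These rest on 3 and 5 susceptible reads, and intervals cover counting error only. Rab40b, a Rab-family GTPase gene, had a pooled ratio of 0.218 (0.0821 to 0.494), from 7 susceptible and 38 control reads. Further proximal sites were those of Ywhab, a 14-3-3 adaptor gene, Mrpl52, a mitochondrial ribosomal protein gene, Fkbp14, a prolyl isomerase gene of the endoplasmic reticulum, and Mir3086. Their susceptible means were 1.86 to 3.43 and their control means 10.8 to 15.3. The start of Mir3086 is that of the annotated microRNA and need not be where its transcript begins.

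Farther out, 19 sites lay 264 to 996 bp from the start and 45 sites 1031 to 2839 bp. All 64 were lower. The median log2 fold change was -2.40 at proximal sites, -2.24 in the 1 kb class, -2.28 in the 3 kb class and -2.43 at the 57 lower gene body sites between 3 and 10 kb. Upstream and downstream sites were both present, 9 and 4 proximal, 10 and 9 in the 1 kb class and 21 and 24 in the 3 kb class.

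**Figure D2:**
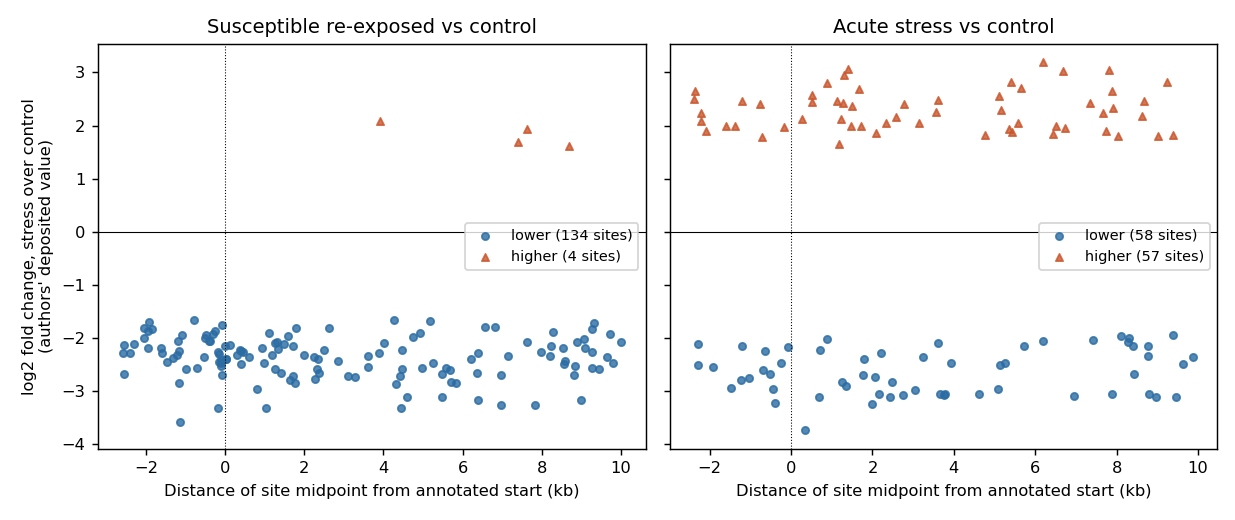
Deposited log2 fold change of stress over control (vertical axis) against the distance of the site midpoint from the annotated start in kb (horizontal axis), with lower sites as circles and higher sites as triangles. Lower sites of the susceptible list run from -3.59 to -1.67 and occur at all distances, whereas the acute list has both directions at all distances.

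The promoter site with the smallest p was that of Pkn2, encoding a serine/threonine kinase (chr3:142882526-142882900, 709 bp before the start). The start of 9530052C20Rik on the other strand is nearer, at 218 bp. The Pkn2 site held 3.26, 0 and 4.40 in susceptible libraries and 16.5 and 13.9 in controls, with an adjusted p of 0.000367 in the authors' deposited table. Chsy3, encoding a chondroitin synthase, held 1.63, 4.97 and 4.40 against 17.4 and 18.2 at a site 1602 bp before its start. Both control values at Chsy3 were far above every susceptible value, and a second lower site lay 63485 bp into the gene. Nudt12, encoding an NADH hydrolase, held 8.14, 3.31 and 4.40 against 19.3 and 18.2 at 1797 bp past the start. Gm5129 and 4930556N13Rik, not annotated as protein-coding in the list, completed the promoter sites with the smallest p, with susceptible means of 1.91 ± 1.70 and 2.15 ± 2.55 (SD, n = 3) and control means of 13.7 ± 1.32 and 14.9 ± 1.60 (SD, n = 2). In the first part of the gene body, Arhgap18, encoding a GTPase-activating protein, had the smallest p, with 0, 2.48 and 1.47 against 13.8 and 12.3 (adjusted p = 0.000705 in the authors' deposited table).

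Of 419 genes in 19 lists for neuronal, chromatin, transcription, housekeeping and cell type functions, 7 had a lower start-proximal site in susceptible mice and 0 a higher one. That split repeats the lower share of 97.1% at start-proximal sites. Such sites fell in 137 genes of this list, and no share over all annotated genes was worked out. Neither the counts below nor those of 0 are therefore results about a function. Actin and cytoskeleton regulators had 2 of 31, Gsn and Pkn2. The lists are not complete, since the actin-regulating genes Fmnl2, Iqgap1 and Spire1 also had lower start-proximal sites and are in none of the 19. Medium spiny neuron genes had 1 of 26, Foxp1, a forkhead transcription factor of striatal projection neurons, with 1.63, 4.14 and 1.47 in susceptible libraries and 11.9 and 12.8 in controls. That site lies 595 bp past the start given in the list, which is 85648 bp from the nearest Foxp1 start among the RefSeq promoters used here. Chromatin remodellers and writers had 1 of 48, Kmt2e, a trithorax-family gene, whose gene body site 4471 bp in had a susceptible mean of 2.62 ± 0.847 (SD, n = 3) and a control mean of 12.3 ± 0.778 (SD, n = 2). RNA binding and splicing genes had 1 of 31, Nova1, a neuronal splicing regulator, with 2.90 ± 1.26 and 13.2 ± 2.07 at 1950 bp before the start.

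Synaptic adhesion genes had 1 of 51, the neuroligin gene Nlgn1, whose postsynaptic protein binds neurexins. Its site 1918 bp before the start held 8.14, 2.48 and 2.94 in susceptible libraries and 16.5 and 12.8 in controls, and a lower site 190469 bp into the gene had means of 2.69 in susceptible mice and 13.6 in controls. Of the oligodendrocyte precursor markers 1 of 3 was hit, the growth factor receptor gene Pdgfra, with 4.88, 1.66 and 5.87 against 11.9 and 14.4 at 791 bp before the start. The lists of neuron, astrocyte, oligodendrocyte, microglia and endothelial markers had 0 members with a start-proximal site, as did immediate early genes, stress hormone signalling, the list of H3.3 and histone chaperones, which does not hold Nap1l4, basal transcription, glutamate and GABA receptors, presynaptic release, voltage-gated channels and housekeeping genes. Whether cell composition moved with the groups was not tested.

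Of the 4 higher sites, 3 had mean susceptible levels above the range of mean control levels at the lower sites, and 1700034K08Rik did not. Acacb, encoding an acetyl-CoA carboxylase of mitochondria, held 58.6, 10.8 and 54.3 in susceptible libraries and 15.6 and 5.87 in controls, 7620 bp into the gene. Here the groups overlapped, since the second susceptible library was below the first control library. Npffr2, a neuropeptide FF receptor gene, held 40.7, 17.4 and 29.4 against 8.26 and 10.7, and Fam227b held 21.2, 11.6 and 27.9 against 3.67 and 5.87. The fourth, 1700034K08Rik, held 9.77, 17.4 and 13.2 against 4.59 and 3.74. The deposited enrichment ratios of Acacb, Npffr2 and Fam227b reached no more than 0.34 for susceptible mice and 0.05 for controls, and the denominator of this ratio is not stated. A susceptible ratio of at least 1 was found at 0 of the 4, against 10 of all 31 higher sites of the list. At 1700034K08Rik the control ratio was at least 1 and the susceptible ratio below 1, opposite to the counts.

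**Figure D3:**
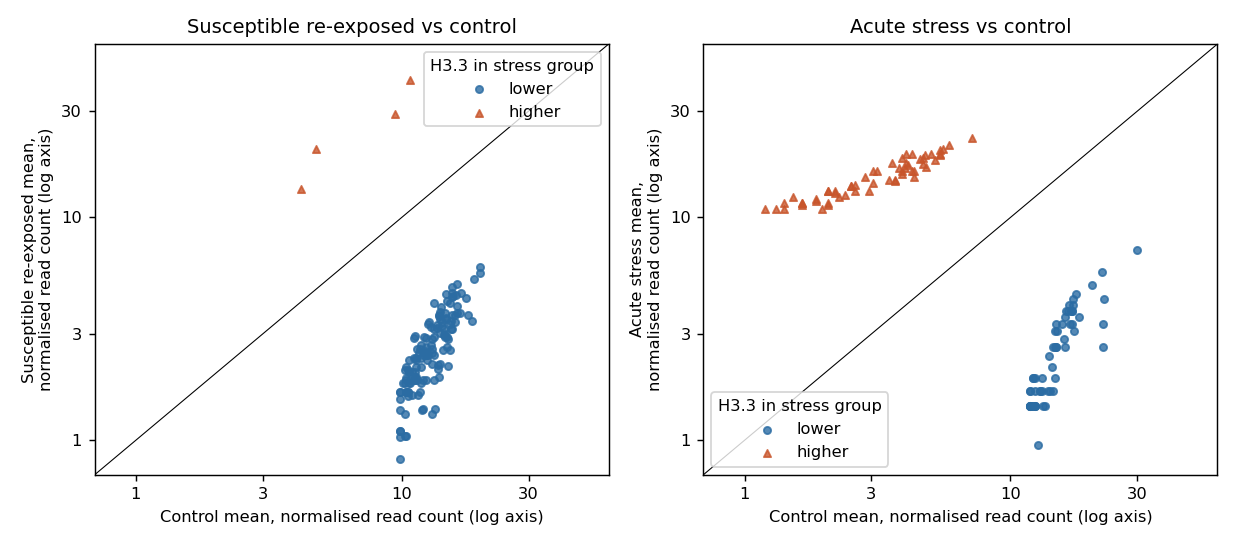
Mean normalised read count of the stressed group (vertical axis, log scale) against the control mean (horizontal axis, log scale) for each start-proximal site; the line marks equal means. Lower sites begin at a control mean of 9.85 in the susceptible list and 11.9 in the acute list, and higher acute sites at a stress mean of 10.9.

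At every lower site of the susceptible list the 2 control libraries held at least 11 and 18 reads, which are 10.1 and 9.61 normalised counts, and 8 start-proximal sites sat exactly at those 2 values. Of the 134 lower sites, 53 had at least 1 susceptible library with 0 reads, against 539 of 1255 over the list. These numbers do not allow for the depth of each library. Sites that were lower with no overlap between the groups' libraries made up 97.1% of the start-proximal sites, beside 97.6% of all listed sites, and those higher with no overlap 2.17%, beside 2.18%. Over the list as near gene starts, no lower site overlapped between groups (1255 and 134 sites). Being without overlap is thus common to every lower site on the list and is no separate sign of replicate agreement.

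The enrichment ratio did not follow the counts everywhere. Of the 134 lower sites, 96 had a control ratio of 1 or more (71.6%, beside 75.7% of all lower sites), and 62 had a susceptible ratio of 1 or more (46.3%, beside 49.1%). Of the 96 control ratios 63 were infinite, beside 757 of 950 in the list. At 5 of the 134 sites, beside 90 of 1255, both ratios were infinite and could not be ordered. At 36 of the 134 (26.9%, beside 20.8%) the ratio was larger in susceptible mice although the count was lower. By class this held for 3 of 13 proximal sites, 8 of 19 in the 1 kb class, 6 of 45 in the 3 kb class and 19 of 57 in the gene body. Gsn, Ccdc59 and Cetn3 were the proximal ones, with ratios of 0.66, 0.54 and infinite in susceptible mice and 0.42, 0.39 and 0.54 in controls. Whether the Input libraries account for this was not tested, since Input values per library are not used here.

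An exact binomial test of the recovered reads at 0.0001 was passed by all 134 lower and all 4 higher start-proximal sites, and over the list by 1249 of 1255 lower and 26 of 31 higher sites. As shares of all sites these are 97.1% lower and 2.90% higher near gene starts, beside 97.1% and 2.02% in the list. The test uses the same reads that put the sites on the list, so passing it is not independent support. With 1 library left out it kept 49, 15 or 50 lower sites without the susceptible library in position 1, 2 or 3 and 41 or 22 without the first or second control library, and Gsn, Arhgap18 and Gm5129 passed in all 5 runs. Of the 4 higher sites it kept 3 without any 1 susceptible library, 1 without the first control library and 0 without the second. These runs have fewer reads by construction. No start-proximal site changed direction in any of them, which was bound to hold wherever the groups do not overlap, at all sites but Acacb.

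After a single acute stress, start-proximal sites went both ways. Of 115 sites, 58 were lower and 57 higher. The lower share was 50.4%, beside 46.6% of all listed sites, and the higher share 49.6%, beside 53.4%. Promoter sites were evenly split with 29 in each direction, and gene body sites with 29 lower and 28 higher. The lower sites had median group values of 2.62 after acute stress and 14.7 in controls, and the higher ones 15.2 and 3.48. Median log2 fold changes in the authors' deposited table were -2.64 and 2.24, close to the -2.64 and 2.2 of the list as a whole.

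**Figure D4:**
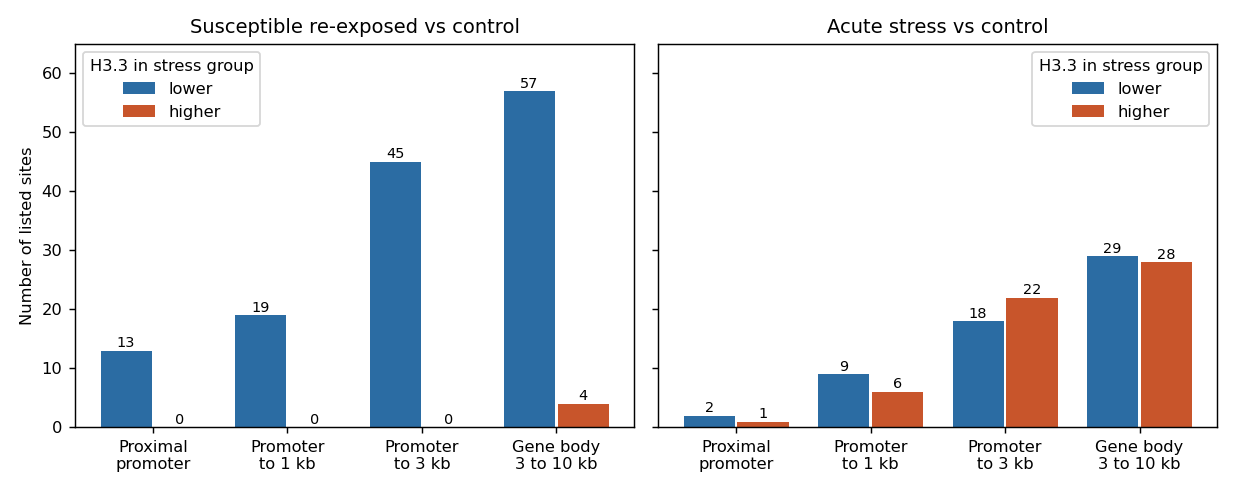
Number of listed sites (vertical axis) that were lower or higher in the stressed group, by annotation class (horizontal axis), for the susceptible list on the left and the acute list on the right. The 77 promoter sites of the susceptible list are all lower, whereas the acute list has 29 lower and 29 higher promoter sites.

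The 3 proximal sites were those of Copa, Nomo1 and Olfr902, whose promoters are printed above. Copa encodes the alpha subunit of the COPI coat, which returns vesicles from the Golgi to the endoplasmic reticulum. It held 4.75 and 1.43 normalised counts in acute stress libraries and 19.5 and 15.1 in controls. The start of Ncstn, a subunit gene of gamma-secretase, lies within 1 kb of the site on the other strand. Nomo1 held 4.75 and 2.86 against 18.4 and 15.8, and Olfr902, an olfactory receptor gene, had 13.3 and 15.7 against 5.41 and 1.97. Olfr902 was the 1 proximal site that was higher, and it did not pass the exact counting test at 0.0001 (p = 0.000118).

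Among lower promoter sites the smallest p was that of Nudt12, with 2.85 and 5.72 in acute stress libraries against 22.7 and 22.3 in controls (adjusted p = 0.00595 in the authors' deposited table). Prss33, a serine protease gene, held 3.8 and 1.43 against 25.96 and 18.4. Txn1, encoding the redox protein thioredoxin, had the largest decrease among acute start-proximal sites, with 1.90 and 0 against 13.0 and 12.5 and a deposited log2 fold change of -3.74. Its pooled ratio, acute stress over control, was 0.0901 (exact 95% counting interval 0.0104 to 0.354) on 2 and 31 reads.

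Also among the named lower sites were those in Dguok, a mitochondrial deoxyguanosine kinase gene, Psmd11, a subunit gene of the proteasome lid, G2e3, a ubiquitin ligase gene, and E030002O03Rik. Dguok had the deepest coverage of them, 5.70 and 8.58 against 34.6 and 24.97 on 12 and 70 reads. Psmd11 held 2.85 and 2.86 against 14.1 and 17.7, so its 2 stressed libraries nearly coincided.

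Sites higher after acute stress started with Zswim3 and Supt4a. Supt4a encodes SPT4, part of the DSIF complex that governs elongation by RNA polymerase II. Its site 2773 bp past the start held 18.1 and 14.3 in acute stress libraries and 2.16 and 3.94 in controls. Zswim3 held 15.2 and 17.2 against 4.33 and 1.97 at 1486 bp, each with an adjusted p of 0.00780 in the authors' deposited table. Ltbp1, which encodes a binding protein of latent TGF-beta, held 10.46 and 12.9 against 2.16 and 0.66 in the gene body, a pooled ratio of 9.31 (exact 95% counting interval 2.76 to 48.9) on 20 and 3 reads. Tyro3, a receptor tyrosine kinase gene of the TAM family, held 10.46 and 14.3 against 1.08 and 1.97, and Tmod1, encoding a cap of actin pointed ends, 16.2 and 17.2 against 5.41 and 2.63. The genes 9130024F11Rik, 4632428N05Rik and Pcsk2os1 had means of 16.7 ± 3.34, 17.6 ± 3.39 and 21.2 ± 0.375 after acute stress and 3.81 ± 0.735, 3.59 ± 0.495 and 5.88 ± 0.870 in controls (SD, n = 2 each). None of these higher sites overlapped between groups, as at every higher site of the acute list. The control side rests on only 3 to 14 reads.

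Of the same 419 listed genes, 2 had a lower and 1 a higher start-proximal site after acute stress. Start-proximal sites of the acute list fell in 114 genes, and again no share over all annotated genes was worked out. Basal transcription genes had 1 of 30, Btaf1, whose ATPase removes TATA-binding protein from DNA, with 0.95 and 5.72 against 16.2 and 15.1 at 709 bp past the start. Btaf1 also carried lower sites 17146 and 44246 bp into the gene, with means of 13.1 and 7.37 after acute stress and 42.8 and 25.2 in controls. The list headed voltage-gated channels had 1 of 34, Kcnn2, whose potassium channel SK2 is opened by calcium and not by voltage, with 5.70 and 4.29 against 19.5 and 21.0 at 878 bp. That list does not hold Cacna1g, a voltage-gated calcium channel gene, which had a lower site in the 1 kb promoter class. Actin and cytoskeleton regulators had 1 of 31, the kinase gene Limk1, whose product phosphorylates cofilin, and it was higher, with 18.1 and 20.01 against 7.57 and 1.97. Tmod1, named above, is not in that list. The other 16 lists had 0 members with a start-proximal site in the acute list.

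At 0.0001 the exact counting test was passed by 58 lower and by 43 higher sites, 50.4% and 37.4% of the start-proximal sites, beside 44.8% and 36.2% of all listed sites. The test again uses the reads that put the sites on the list, so passing it is not independent support. With 1 library left out it kept 2 or 11 lower and 7 or 5 higher sites without the first or second acute stress library, and 17 or 11 lower and 7 or 0 higher without the first or second control library; Prss33 alone passed in all 4 runs. The 2 groups did not overlap at any of the 115 sites. The same was true of all 473 lower and 541 higher sites of the list, so it is no separate sign of replicate agreement. Lower and higher sites without overlap were thus 50.4% and 49.6% near gene starts, beside 46.6% and 53.4%. Enrichment ratios of the group with the higher count were at least 1 at 46 of 58 lower sites (79.3%, beside 75.7%) and at 47 of 57 higher sites (82.5%, beside 85.0%). Infinite ratios made up 32 of the 46 and 15 of the 47, beside 260 of 358 and 222 of 460 in the list. Both ratios were infinite, and could not be ordered, at 11 lower and 12 higher sites. At 12 lower (20.7%, beside 18.8%) and 20 higher sites (35.1%, beside 34.0%) the ratio went the other way from the count, shares near those of the list.

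The same start-proximal site appeared in both lists in 4 cases, in Nudt12, G2e3, Kbtbd8 and Tbc1d15, and each was lower in both, as were all 48 sites of any kind that the lists shared. The 4 are 2.90% of the start-proximal sites of the susceptible list and 3.48% of those of the acute list, beside 3.73% and 4.73% for all sites of the lists. Both comparisons use control libraries in common, so low values against the same controls are not independent. Nudt12 had identical bounds in both lists (chr17:59011301-59011750). At G2e3 the counts were 4.88, 5.79 and 7.34 in susceptible libraries and 21.1 and 18.2 in controls, and 5.70 and 5.72 after acute stress against 23.8 and 20.4. Tbc1d15, encoding a GTPase-activating protein of Rab7, had 4.88, 4.97 and 1.47 against 12.9 and 15.0, and 1.90 and 5.72 against 15.1 and 17.1. Kbtbd8, encoding an adaptor of the CUL3 ubiquitin ligase, had 3.26, 2.48 and 4.40 against 11.9 and 13.4, and 1.90 and 1.43 against 14.1 and 11.8, at sites that overlapped by 100 bp. All susceptible and acute values at these 4 sites were below all control values of their own list, as at every lower site of either list.

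**Figure D5:**
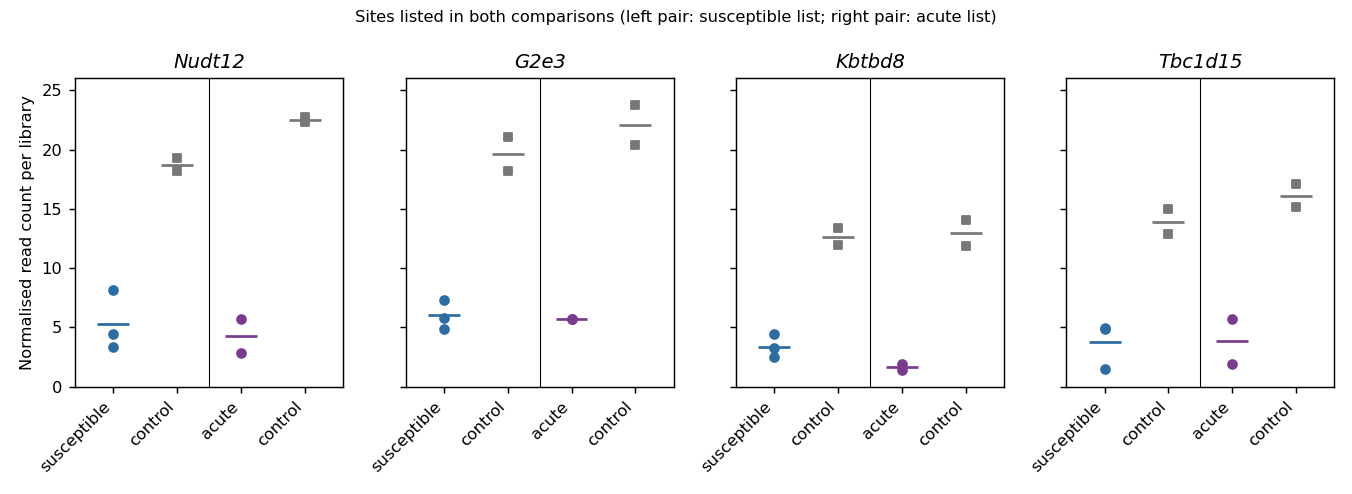
Normalised read count of each library (vertical axis) at the 4 start-proximal sites listed in both comparisons, with the stressed group left of its controls in each pair and bars for group means. All stressed libraries lie at or under 8.14 and all control libraries at or above 11.8.

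Repeated sites within a gene were rare. In the susceptible list Ccdc33 had 2 start-proximal sites, 1775 and 5473 bp past the listed starts of different transcripts, with susceptible means of 1.64 ± 1.63 and 1.37 ± 1.26 (SD, n = 3) and control means of 11.7 ± 2.93 and 11.9 ± 2.56 (SD, n = 2). In the acute list G2e3 had 2, the second of them 1345 bp past the start with 1.90 and 1.43 against 13.0 and 11.8. Of the 247 genes, 23 also had a listed site beyond the start-proximal range. In 17 of these all listed sites were lower, and in 6 they went both ways. The tally pools both lists, of which 97.6% (susceptible) and 46.6% (acute) of all sites were lower, so it is no sign of agreement within a gene. Among the 6, Mdga2 and Angpt1 were higher near the start after acute stress (means 14.8 and 19.3, against 3.48 and 4.25 in controls) and lower deep in the gene in susceptible mice (2.36 at 243349 bp and 1.91 at 210127 bp, against 13.2 and 11.7). Ext1 and Tshz2 had the converse, lower near the start in susceptible mice (2.19 and 2.35, against 13.9 and 11.1) and higher deep in the gene after acute stress (10.9 and 15.7, against 1.31 and 3.81). In 2 the opposite sites stood in 1 list. Fam227b, higher near the start in susceptible mice, was lower 55929 bp in (3.16, against 13.4 in controls), and Pcca, lower before its start after acute stress (2.38, against 13.9), was higher 290147 bp in (15.7, against 3.26). All these sites sit at different positions and the difference between comparisons was not tested.

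By chromosome, the share of start-proximal sites lay above that of other listed sites on chromosome 11 and, in the susceptible list, below it on chromosome 1. Chromosome 11 held 21 of 138 (15.2%) in the susceptible list and 15 of 115 (13.0%) in the acute list, beside 5.23% and 4.89% of the other listed sites and 6.97% of the RefSeq promoters used here. Chromosome 1 held 3 of 138 (2.17%), beside 8.54%, in the susceptible list and 10 of 115 (8.70%), beside 8.57%, in the acute list. These shares were noticed after the values were seen and were not tested. Another gene's start among these promoters lay within 1000 bp of the site at 5 of 138 and 3 of 115 sites, which are lower bounds since the set is incomplete. Just inside the limit of 10000 bp were Pstpip1 at 9999 bp, with means of 2.89 in susceptible mice and 12.1 in controls, and Ipo8 at 9867 bp, with 3.33 after acute stress and 17.1 in controls. Just outside were Zeb2 at 10464 bp with 3.39 and 13.8, and Schip1 at 10011 bp with 4.05 and 16.5.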

How the data were processed

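Per the labels' protocols, 9 H3.3 ChIP libraries and 9 Input libraries were prepared from crosslinked mouse nucleus accumbens with an Illumina kit. The submitters' processing notes list Bowtie2 2.2.0, SAMtools 0.1.19 and the build mm10. The 2 tables of differential sites name diffReps and windows of 250 bp, per the table names; the sources used here state no version, test, normalisation or read filter for it. Each deposited count cell gives 1 normalised read count for every library. The average columns hold mean coverage signal per group, per the file headers. The enrichment ratio per group, the log2 fold change of stress over control, the p-value and the adjusted p-value were deposited by the authors, and no model was refitted, since only listed sites are present.

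The values of a library rose in equal steps of 1 read. Dividing by the step gave whole reads for at least 99.9% of values, within a tolerance of 0.011. Recovered reads entered a two-sided exact binomial test given relative depths, with Clopper-Pearson 95% intervals (SciPy 1.17.1), also with each library left out; it was tested on simulated data, covers counting error only and uses the same reads that put the site on the list. With so few libraries the smallest exact permutation p is 0.2 (susceptible) or 0.333 (acute), so that test was not used. PCR reads are not independent molecules.

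RefSeq promoters (GRCm38.p6) were matched by transcript or symbol. Named are, per list and direction, the 8 sites with the smallest p, the 8 within 250 bp of the start, repeated genes, genes in both lists, listed genes and sites beside the 10000 bp limit. Gene lists and sites were chosen with earlier results of these data known. Some named sites are not reported here.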

Additional observations from a re-analysis of the deposited data

How the results depend on the processing

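All 253 sites kept their direction when it was taken from medians over libraries and in every leave-one-out run of the exact counting test. The groups did not overlap at any of them except Acacb, and without overlap neither check can change a direction. The lower susceptible count of 134 moved to 9 at an adjusted p of at most 0.001 and to 77 with promoter classes alone, and ranged from 15 to 50 with 1 library left out. The higher susceptible count of 4 moved to 0 at that adjusted p, 1 within 5000 bp, 0 with promoter classes alone and 0 at an enrichment ratio of at least 1, and ranged from 0 to 3 with 1 library left out. The acute counts of 58 lower and 57 higher moved to 0 and 0 at that adjusted p, since the smallest acute value was 0.00595 among start-proximal sites, to 37 and 33 within 5000 bp and to 29 and 29 with promoter classes alone. With 1 library left out they ranged from 2 to 17 and from 0 to 7. Sites shared by both lists numbered 3 instead of 4 when the overlap had to reach 50% of both sites. All 28 named susceptible sites and 24 of 25 named acute sites passed the exact counting test, and the exception was Olfr902. That test uses the same reads that put the sites on the list. At Txn1 and E030002O03Rik, leaving out 1 acute stress library left 0 stressed reads, so no fold could be given. No paired analysis was possible because the positions in the lists carry no replicate numbers. Totals per library were not used here, so depth is known only from the value of 1 read.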

Other observations

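Genes of some other functions were noticed only after the values were seen and are given as values. Lower start-proximal sites in susceptible mice included further chromatin genes. Smarcd2, a subunit gene of SWI/SNF remodellers, held 3.26, 1.66 and 1.47 normalised counts in susceptible libraries and 12.9 and 10.7 in controls. Cbx5, encoding heterochromatin protein 1 alpha, held 1.63, 1.66 and 0 against 10.1 and 9.61. Kdm3a, a histone demethylase gene, held 3.26, 1.66 and 0 against 10.1 and 9.61, and the histone gene Hist1h2bg 1.63, 4.97 and 4.40 against 17.4 and 13.4, although near-identical histone genes can share reads. Genes of muscarinic and cAMP signalling were also among them: Chrm3, a muscarinic receptor gene, held 4.88, 1.66 and 0 against 15.6 and 11.8, Prkar2b, a regulatory subunit gene of protein kinase A, 1.63, 3.31 and 0 against 10.1 and 10.7, and Pde7a, a cAMP phosphodiesterase gene, 6.51, 5.79 and 1.47 against 18.4 and 15.0.

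In the acute list 5 start-proximal sites belonged to olfactory receptor genes, 4 of them higher (Olfr26, Olfr112, Olfr902 and Olfr913) and 1 lower (Olfr914). The susceptible list had 1, Olfr1410, and it was lower. Olfr913 held 15.2 and 14.3 after acute stress against 5.41 and 1.97 in controls, and its neighbour Olfr914 held 3.8 and 1.43 against 16.2 and 15.8. Members of this family are near copies of each other, and the treatment of reads that match several places is not stated. Tph2, the gene of the brain enzyme that begins serotonin synthesis, had a lower site 1466 bp before its start, with 3.8 and 0 after acute stress against 16.2 and 13.1 in controls. The innate immune receptor genes Tlr5 and Nod2 had higher sites, with 15.2 and 20.01 against 2.16 and 5.91 and with 14.3 and 20.01 against 4.33 and 3.94.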
